A study of Mus musculus with 18 samples.

Results

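The 6 genes described here, Emb, Plac8, Cdh1, Prss16, Smtn and 1700025G04Rik, were chosen by their levels in the RNA-seq of type 1 lymphocytes, out of 54309 genes, as transcripts higher in CD49a+ NK cells of liver metastasis (LM) and outside the cell cycle. Their levels in CD49a+ NK cells against the other lymphocytes are given as a description, without a test. In the study, MC38 cells, a mouse colon adenocarcinoma line, were injected into the spleen of female mice aged 8 to 10 weeks, and metastases grew in the liver. Lineage-negative CD45+ NKp46+ cells were sorted from pools of 6 to 8 samples into 4 populations with 3 libraries each. These were NK cells of metastasis-free liver (MFL; CD49a- CD49b+), ILC1 of MFL (CD49a+ CD49b-), LM CD49a- NK cells (CD49a- CD49b+) and LM CD49a+ NK cells (CD49a+ CD49b+). A second experiment measured lineage-negative CD45+ CD11b+ metastasis-associated macrophages (MAMs) of MC38 metastases in 3 F4/80int and 3 F4/80hi libraries, the former labelled F4/80low. The labels give no engineered allele and no treatment other than the tumor cells for any of these groups. In their titles the CD49a+ NK libraries are called ILC1, and their cell type label and gate decided the group.

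NK cells and ILC1 are innate lymphocytes that kill target cells and make interferon-γ. NK cells circulate, whereas ILC1 live in tissues such as the liver and carry CD49a, an integrin chain that binds collagen. NK cells in tumors can take on CD49a. Among the 6 genes, Emb encodes embigin, a membrane glycoprotein that escorts monocarboxylate transporters to the cell surface and binds matrix. Cdh1 encodes E-cadherin, the adhesion protein of epithelial junctions, which is also the ligand of the inhibitory receptor KLRG1 and of the integrin CD103 (Itgae with Itgb7). Plac8 encodes a small cysteine-rich protein found in many myeloid and lymphoid cells. Prss16 encodes a serine peptidase best known from the thymic cortex, Smtn encodes smoothelin, an actin-binding protein of contractile cells, and 1700025G04Rik is a protein-coding gene named only by its clone.

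In the GRCm39 build with GENCODE vM39 annotation, Emb (ENSMUSG00000021728) lies on chromosome 13 from 117345072 to 117414817 on the plus strand and Prss16 (ENSMUSG00000006179) on chromosome 13 from 22184773 to 22193912 on the minus strand. Cdh1 (ENSMUSG00000000303) lies on chromosome 8 from 107329941 to 107396880 on the plus strand, and Plac8 (ENSMUSG00000029322) on chromosome 5 from 100701591 to 100720111 on the minus strand. Smtn (ENSMUSG00000020439) lies on chromosome 11 from 3467520 to 3490612 and 1700025G04Rik (ENSMUSG00000032666) on chromosome 1 from 151728033 to 151966904, both on the minus strand. The genes thus sit on 5 chromosomes, with Emb and Prss16 far apart on the one they share.

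The start regions of Cdh1 and Plac8 are shown because these genes had some of the largest fold differences in the comparisons below and because the sequences hold matches to motifs of transcription factor families that act in lymphocytes or on E-cadherin. Each window runs from 250 bases before the start of the canonical transcript to 50 bases from it, 5′ to 3′ on the strand of the gene, at chr8:107329733-107330032 (plus) for Cdh1 and chr5:100720062-100720361 (minus) for Plac8. That start is 107329983 for Cdh1, 42 bases inside the gene as annotated, and 100720111 for Plac8, the start of the gene. Capitals mark the motif matches, whose positions are counted from these starts.
Cdh1: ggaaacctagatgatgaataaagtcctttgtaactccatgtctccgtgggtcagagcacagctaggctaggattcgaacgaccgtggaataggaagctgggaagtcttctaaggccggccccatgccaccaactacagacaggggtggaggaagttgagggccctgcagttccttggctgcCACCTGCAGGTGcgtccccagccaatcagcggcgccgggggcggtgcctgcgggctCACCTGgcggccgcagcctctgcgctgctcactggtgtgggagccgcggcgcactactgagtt
Plac8: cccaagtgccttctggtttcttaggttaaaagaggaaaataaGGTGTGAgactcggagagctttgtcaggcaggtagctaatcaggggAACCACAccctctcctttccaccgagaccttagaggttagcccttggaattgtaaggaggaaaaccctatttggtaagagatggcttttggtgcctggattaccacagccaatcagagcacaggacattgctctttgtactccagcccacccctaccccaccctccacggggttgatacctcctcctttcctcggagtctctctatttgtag

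In the Cdh1 window, the E-box CACCTG, the letters bound by repressors of the ZEB and SNAIL families, was found 3 times, at -69 and -13 on the strand of the gene and at -63 on the opposite strand, so that the matches at -69 and -63 abut without overlap. At least 1 such E-box on either strand was found in 17.9% of the 13525 windows of the genes tested in lymphocytes. In the Plac8 window, the T-box letters TCACACC were found on the opposite strand at -208 (3.45% of all windows hold them on either strand) and the RUNX letters TGTGGTT on the opposite strand at -162 (4.72% of all windows). None of the 6 windows held the AP-1 letters TGANTCA, found in 5.48% of all windows, or the E2F letters TTTCCCGC, found in 1.74% of all windows and in 3.12% of the 96 windows of cell cycle genes. The Emb, Prss16, Smtn and 1700025G04Rik windows held no match to any of the 5 motifs. A match is a description of the sequence only, and binding was not measured here.

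The lymphocyte libraries held between 8795721 and 14386834 counts and the MAM libraries between 21278959 and 32267015. Replicates stood farther apart in LM than in MFL, with a mean root mean square distance of log2 levels to the other replicates of 2.15 to 2.57 in LM and of 1.06 to 1.69 in MFL. Markers of NK cells and ILC1 were high in each lymphocyte library, at a summed level of 5399.6 to 7807 CPM (counts scaled to a common library size, corrected by TMM factors). LM was dissociated with enzymes and MFL parenchyma by mashing, so that site and dissociation cannot be told apart. All 6 genes passed the filter on low counts in both experiments, Plac8, Cdh1, Prss16 and Smtn with libraries at 0 in some groups. In such bulk samples, fewer cells of a type and less RNA per cell cannot be told apart.

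By their means, all 6 genes were higher in CD49a+ NK cells than in both other NK populations, the property behind the choice. Against MFL ILC1 this held for 5 of them. Being higher in every library, a stricter reading, held for some of the genes and not for others. In CD49a+ NK cells, Emb, Plac8 and Cdh1 were above both other NK populations in every library (3 of 6 genes, against 2.6% of the 13594 genes tested), and Emb and Plac8 were above all 3 other populations (2 of 6 genes, against 1.51%). With these contrasts behind the choice of the genes, nothing is read from the counts. Smtn and 1700025G04Rik overlapped with MFL NK cells, Prss16 was at 0 in 1 of the 3 CD49a+ NK libraries, and Cdh1 was higher on average in MFL ILC1. Of the 6 genes, 5 are on the 22-gene CD49a+ NK signature that the study drew from these libraries and Cdh1 is not, and 0 of the 6 are on the 97-gene cell cycle list distributed with Seurat. The summed level of that list was 5392 to 6547 CPM in CD49a+ NK cells, above the 3198 to 4985 CPM of the other lymphocytes.

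**Figure D1:**
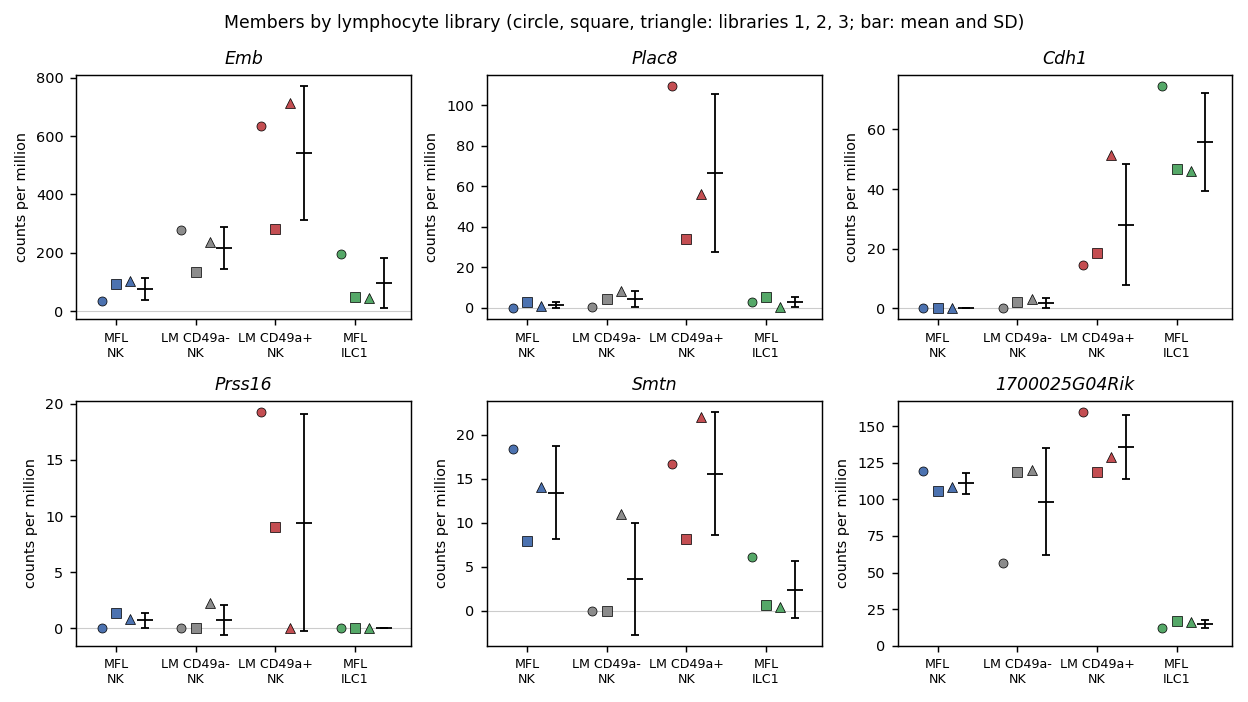
Level of each gene (y axis, CPM, 1 scale per panel) in the 12 lymphocyte libraries by population (x axis), with the mean and SD of 3 libraries beside the points. Emb and Plac8 are highest in LM CD49a+ NK cells in every library, Cdh1 is highest on average in MFL ILC1, and 1700025G04Rik is low in MFL ILC1 alone.

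Emb had the highest level of the 6 genes in CD49a+ NK cells, also per kb of exon sequence. It measured 636, 282 and 712 CPM in CD49a+ NK libraries 1, 2 and 3, against 277, 135 and 237 CPM in LM CD49a- NK cells. In MFL NK cells it measured 33.8, 94.5 and 103 CPM, and in MFL ILC1 196, 47.4 and 45.3 CPM. Every CD49a+ NK library was above every other library, but by a narrow margin, since CD49a+ NK library 2 exceeded LM CD49a- NK library 1 by little. With another scaling of the libraries (RLE factors), these 2 libraries changed places, at 278 and 285 CPM, so that 1 of the 6 genes (Plac8) then lay above all 3 other populations. The mean was 543 CPM ± 229.7 (SD, n = 3) in CD49a+ NK cells, 2.51-fold that of LM CD49a- NK cells (log2 fold change 1.33, SE 0.52), 7.06-fold that of MFL NK cells (2.82, SE 0.55) and 5.64-fold that of MFL ILC1 (2.497, SE 0.54). The SE of a log2 fold change comes from the model fitted to the 12 libraries and is approximate.

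Basigin (Bsg), the other escort of monocarboxylate transporters, had means from 93.6 to 119.6 CPM over the 4 populations. The lactate transporter Slc16a1 had means from 6.18 to 17.99 CPM, and Slc16a3, the transporter of glycolytic cells, from 4.18 to 4.44 CPM. Slc16a7 was scarce, with means from 0.247 CPM in LM CD49a- NK to 1.91 CPM in CD49a+ NK libraries. The highest mean of Emb was 7.06-fold its lowest. Those of Bsg, Slc16a1 and Slc16a3 differed by less over the same populations, and those of the scarce Slc16a7 by more.

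Among the lymphocytes, Plac8 was high in CD49a+ NK cells and low in the other 3 populations. It measured 109.6, 33.9 and 56.0 CPM in these libraries, against 0.446, 4.54 and 8.11 CPM in LM CD49a- NK cells. In MFL NK cells it measured 0, 3.17 and 1.17 CPM, and in MFL ILC1 2.97, 5.49 and 0.284 CPM. The lowest CD49a+ NK library was thus well above the highest of the other 9 libraries, and the CD49a+ NK libraries differed among themselves by 3.24-fold. The mean of 66.5 CPM ± 38.9 (SD, n = 3) was 15.2-fold that of LM CD49a- NK cells (log2 fold change 3.92, SE 1.29), 45.9-fold that of MFL NK cells (5.51, SE 1.40) and 22.8-fold that of MFL ILC1 (4.50, SE 1.33). The other members of its family, Plac8l1 and Cnfn, were at 0 in all 12 libraries.

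Since Plac8 is also abundant in myeloid cells and plasmacytoid dendritic cells, their markers were read in the same CD49a+ NK libraries. All 7 neutrophil markers were at 0. The sum of 8 macrophage markers was 0, 44.0 and 6.88 CPM in libraries 1, 2 and 3, with Adgre1, C1qa and C1qc at 0 in all 3 libraries, and the library with the highest Plac8 had no count of any of the 8. Of the 5 plasmacytoid dendritic cell markers, Siglech and Ccr9 were at 0. The sum of the 5 was 111, 59.2 and 77.4 CPM in libraries 1, 2 and 3, with Tcf4 the highest. The library with the highest Plac8 thus had the highest of these sums. In LM CD49a- NK libraries the sum was 38.9 to 105 CPM, in MFL NK 49.4 to 63.1 CPM and in MFL ILC1 37.4 to 49.2 CPM. A list of 8 conventional dendritic cell markers was added after the values were seen. Their sum was 19.5 to 47.8 CPM, with Xcr1 and Clec9a at 0 and Zbtb46 the highest. It was 16.3 to 82.6 CPM in LM CD49a- NK, 5.31 to 10.9 CPM in MFL NK and 1.27 to 6.51 CPM in MFL ILC1 libraries. Cd209a and Clec10a had counts in CD49a+ NK cells and were at 0 in LM CD49a- and MFL NK cells. Monocyte markers and Ighm were also above 0. The sum of 7 monocyte markers was 391 to 630 CPM in CD49a+ NK, 361 to 391 CPM in MFL NK and 254 to 610 CPM in LM CD49a- NK libraries, with Ccr2 the highest in each. Ighm, the immunoglobulin μ heavy chain gene, was also without overlap between CD49a+ and the other NK cells, at 117 to 121 CPM in CD49a+ NK, 15.9 to 83.2 CPM in LM CD49a- NK and 27.7 to 72.5 CPM in MFL NK libraries. In MFL ILC1, where Plac8 was low, Ighm measured 136 to 184 CPM. The part of other cells in the Plac8 level was not tested.

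Cdh1 was higher in the CD49a+ populations of both sites than in the CD49a- ones. It measured 14.3, 18.4 and 51.5 CPM in CD49a+ NK cells and 74.7, 46.8 and 46.0 CPM in MFL ILC1. The LM CD49a- NK libraries had 0, 1.99 and 3.15 CPM, and in MFL NK cells it had 0, 2 and 0 counts in the 3 libraries. The 2 populations with CD49a on their surface were above the 2 without it in every library, and they overlapped with each other through CD49a+ NK library 3. The mean in CD49a+ NK cells was 28.1 CPM ± 20.4 (SD, n = 3), 16.4-fold that of LM CD49a- NK cells (log2 fold change 4.01, SE 1.07) and at least 123-fold that of MFL NK cells, where the bound sets each library to 3 counts. It was 0.503-fold that of MFL ILC1 (log2 fold change -0.99, SE 0.94).

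The receptors of E-cadherin had other patterns. Klrg1 had a mean of 96.8 CPM for MFL NK, 45.8 CPM for LM CD49a- NK, 17.8 CPM for CD49a+ NK and 6.76 CPM for ILC1 libraries. Itgae stayed between 0.131 and 1.16 CPM on average in the 4 populations, and its partner Itgb7 between 258 and 384 CPM. Of the intracellular partners, β-catenin (Ctnnb1) had means from 137 to 205 CPM, whereas p120-catenin (Ctnnd1), which binds the juxtamembrane part of cadherins, had means of 0 to 0.0976 CPM. The order of Klrg1 was thus the reverse of that of its ligand Cdh1 in the means of the 4 populations.

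Of the epithelial markers, which E-cadherin usually accompanies, 7 of 9 were at 0 in CD49a+ NK cells. The sum of the 9 was 10.5, 6.57 and 0 CPM in CD49a+ NK libraries 1, 2 and 3, 12.5 to 20.5 CPM for ILC1, 0 to 1.58 CPM for LM CD49a- NK and 0.147 to 2.53 CPM for MFL NK libraries. Epcam was the highest of them in both CD49a+ NK cells and MFL ILC1, and the keratins Krt18 and Krt19 and the claudins Cldn3, Cldn4 and Cldn7 were at 0 in both. The part of other cells in the Cdh1 level was not tested.

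Prss16, Smtn and 1700025G04Rik did not separate CD49a+ NK cells from the other NK cells. Prss16 measured 19.3, 8.995 and 0 CPM in CD49a+ NK cells. Its level was 0, 0 and 2.28 CPM without CD49a in LM and 0, 1.33 and 0.808 CPM in NK cells of MFL, and it had no count in MFL ILC1. The 2 CD49a+ NK libraries with counts were the highest of the 12, and CD49a+ NK library 3 was at 0. Library 3 held 10591055 counts in all, and the mean of 9.42 CPM ± 9.64 (SD, n = 3) was smaller than its SD. It was 12.4-fold that of LM CD49a- NK cells (log2 fold change 3.595, SE 2.58), 13.2-fold that of MFL NK cells (3.71, SE 2.59) and at least 37.3-fold that of MFL ILC1. The related peptidases Dpp7 and Prcp had means of 3.27 and 8.37 CPM in CD49a+ NK cells, below their means in each of the other populations.

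Smtn measured 16.7, 8.13 and 22.02 CPM in CD49a+ NK cells and 18.4, 7.96 and 14.0 CPM in MFL NK cells. In LM CD49a- NK cells it measured 0, 0 and 11.03 CPM, and in MFL ILC1 6.11, 0.659 and 0.474 CPM. The first pair of populations overlapped over nearly their whole range, and the CD49a+ NK libraries were above MFL ILC1 in each case. The mean in CD49a+ NK cells was 1.16-fold that of MFL NK cells (log2 fold change 0.21, SE 1.61) and 4.24-fold that of LM CD49a- NK cells (2.07, SE 1.68), where 2 LM CD49a- NK libraries were at 0, and 6.46-fold that of MFL ILC1 (2.69, SE 1.72). The smoothelin-like genes Smtnl1 and Smtnl2 were at 0 throughout, and of 10 smooth muscle and stellate cell markers 8 were at 0 in CD49a+ NK cells. The sum of the 10 was 10.8, 1.10 and 20.7 CPM in CD49a+ NK libraries 1, 2 and 3, with Tagln the highest. In LM CD49a- NK libraries 1, 2 and 3 it was 39.2, 0 and 2.60 CPM. It was 0.590 to 3.08 CPM in MFL NK and 0.512 to 2.38 CPM in MFL ILC1 libraries. The part of other cells in the Smtn level was not tested.

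1700025G04Rik was at a like level in the 3 NK populations and low in MFL ILC1. It measured 160.0, 118.5 and 129 CPM in CD49a+ NK cells and 119.1, 106 and 108 CPM in MFL NK cells. Without CD49a, LM NK cells had 56.3, 119.0 and 120.3 CPM. In MFL ILC1 it measured 11.97, 16.8 and 16.2 CPM. The 3 NK populations overlapped, and all 9 NK libraries were above the 3 ILC1 libraries. The mean of 136 CPM ± 21.6 (SD, n = 3) in CD49a+ NK cells was 1.22-fold that of MFL NK cells (log2 fold change 0.29, SE 0.30), 1.38-fold that of LM CD49a- NK cells (0.46, SE 0.30) and 9.05-fold that of MFL ILC1 (3.18, SE 0.33).

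Set on a scale that allows genes to be compared, CPM per kb of exon sequence, the mean level in CD49a+ NK cells was highest for Emb, followed by 15.1 for Plac8, 10.2 for 1700025G04Rik, 6.05 for Cdh1, 3.502 for Smtn and 1.55 for Prss16. From Plac8 down to Prss16, each gene overlapped with the next in this order, and Emb did not overlap with Plac8.

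Likeness of pattern was measured as the root mean square difference of log2 CPM after each gene was centred on its own mean, over the 12 libraries, where a smaller value means a closer pattern. The distances between the 6 ranged from 1.45 (Emb with 1700025G04Rik) to 4.22 (Cdh1 with 1700025G04Rik). A gene without any variation would lie 1.37 from Emb and 1.30 from 1700025G04Rik, so that 1.45 is no sign of a like pattern. These values are descriptions, since the libraries share populations and sorting.

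Among 9759 genes with a mean of at least 5 CPM, the pattern closest to Emb was that of Crtam, an adhesion receptor of activated cytotoxic lymphocytes (difference 0.63), followed by the transcriptional repressor Bcl6 (0.74) and the carboxypeptidase Cpd (0.74). Crtam had means of 52.2 CPM for CD49a+ NK, 35.0 CPM for LM CD49a- NK, 17.96 CPM for MFL NK and 18.2 CPM for ILC1 libraries. Closest to Plac8 were Pmepa1, a TGF-β-induced inhibitor of SMAD signaling (1.40), 5830408C22Rik (1.63) and Hemgn (1.68), of which 5830408C22Rik is on the signature of the study, chosen on these libraries. Pmepa1 had means of 77.8 CPM for CD49a+ NK, 40.6 CPM for LM CD49a- NK, 11.1 CPM for ILC1 and 4.80 CPM for MFL NK libraries.

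Closest to Cdh1 were the Notch ligand Jag1 (1.47), Cd101 (1.63) and Gdpd5 (1.67). All 3 had their highest mean in MFL ILC1 and the next in CD49a+ NK cells, with 87.9 and 60.9 CPM for Gdpd5 and 18.2 and 7.67 CPM for Jag1. Closest to 1700025G04Rik were Il18r1, a chain of the interleukin-18 receptor (0.49), the transcription factor Lef1 (0.52) and the amino acid transporter Slc7a5 (0.53), each low in MFL ILC1. Lef1 had means of 113 to 140.4 CPM in the 3 NK populations and 21.2 CPM in MFL ILC1. A gene without any variation would lie 2.72 from Plac8, 3.43 from Cdh1, 2.41 from Prss16 and 2.53 from Smtn, beside which these distances are to be read. Closest to Prss16 were Cdca2, H4c2 and Tbrg4 (1.69 to 1.73), and closest to Smtn were Agpat5, Spc24 and Polq (1.27 to 1.30). Cdca2, H4c2, Spc24 and Polq encode proteins of chromatin, mitosis or DNA repair.

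The next comparison asked how ILC1 differ from NK cells where both come from MFL and from 1 mode of dissociation. CD49a+ NK cells are not in this contrast, but both of its populations were among those read in the choice of the genes. The test is thus not independent of that choice. With the quasi-likelihood test of edgeR and p-values adjusted by Benjamini-Hochberg over 13594 genes, at an adjusted p under 0.1, 1 of the 6 genes was higher in ILC1 and 1 lower, against 1.38% of all genes called higher, 1.68% called lower and 3.06% in either direction. Cdh1 was higher, at a mean of 55.8 CPM ± 16.3 (SD, n = 3) against 0.0491 CPM, at least 244-fold (adjusted p = 0.000566). 1700025G04Rik was lower, at 15.0 CPM ± 2.65 against 111 CPM ± 7.09 (SD, n = 3), 7.40-fold (log2 fold change -2.89, SE 0.32, adjusted p = 3.14e-05). No library of the populations overlapped for either gene, as held for 12.2% of all genes in the direction of Cdh1 and 13.1% in that of 1700025G04Rik.

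The other 4 genes did not pass the test by edgeR. Smtn had 5.57-fold less in ILC1 with no overlap of libraries (log2 fold change -2.47, SE 1.70, adjusted p = 1). Prss16 had no count in ILC1 (adjusted p = 0.642), and Emb (log2 fold change 0.32, SE 0.52) and Plac8 (1.01, SE 1.19) overlapped (adjusted p = 1 for both). The direction of Emb depended on ILC1 library 1, at 196 CPM, and on MFL NK library 1, since without the former the log2 fold change was -0.74 and without the latter -0.04. With limma-voom and library quality weights, which called 19.5% of all genes, 5 of the 6 genes passed, among them Emb in the other direction (log2 fold change -0.85). Prss16 was also among the 5. In a fit of MFL ILC1 and MFL NK cells alone, Prss16 did not pass the filter on low counts, which it had passed with the LM libraries included.

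T cell markers moved with this contrast. The sum of 7 T cell markers was 249 to 681 CPM in MFL ILC1 and 4.98 to 14.7 CPM in MFL NK cells, with Cd3g the highest and none of the 7 at 0 in ILC1. In CD49a+ NK cells, where Cdh1 was also measured, the sum was 5.18 to 35.7 CPM, with Cd4, Cd8a and Cd8b1 at 0. Ighm measured 136 to 184 CPM in ILC1 and 27.7 to 72.5 CPM in MFL NK libraries without overlap (adjusted p = 0.101 by edgeR), and the summed macrophage markers 9.59, 119.6 and 8.24 CPM in ILC1 libraries 1, 2 and 3 and 4.11 to 11.8 CPM in MFL NK libraries. The part of other cells in the level of Cdh1 or of 1700025G04Rik in ILC1 was not tested.

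Around Cdh1, 2 of the 9 other tested genes of the list of E-cadherin adhesion and its receptors passed the test, both lower in ILC1. Klrg1 was 14.3-fold lower (log2 fold change -3.84, SE 0.72, adjusted p = 0.00468) and vinculin (Vcl), which ties junctions to actin, 8.67-fold lower (-3.11, SE 0.42, adjusted p = 0.000188). The median log2 fold change of these 9 genes was 0.10, beside 0.01 over all genes tested. No gene other than the members passed in the list of embigin and monocarboxylate transport (0 of 9 genes, median -0.19), of S28 peptidases and antigen-processing proteases (0 of 11 genes, median 0.14) or of the smoothelin family and contractile cytoskeleton (0 of 2 genes, median -0.47).

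The comparison of LM CD49a- with MFL NK cells asked whether the genes differ between the sites in NK cells without CD49a. It shares the MFL NK libraries with the preceding comparison, and both of its populations were comparators in the choice of the genes. Here 0 of the 6 genes passed the edgeR test, in which 10 of 13594 genes (0.0736%) were called, 0.0662% higher and 0.00736% lower, and 2 of the 6 genes and 914 of all genes had an unadjusted p under 0.05. DESeq2, which called 2.17% of all genes, called 1 of the 6 (Cdh1, adjusted p = 0.0248), and edgeR without the filter on low counts, which called 0.719%, called 2 (Emb and Cdh1). The Emb level of every LM CD49a- NK library exceeded that of every MFL NK library, 2.81-fold in the mean (log2 fold change 1.49, SE 0.53, adjusted p = 0.699), a lack of overlap shared by 4.27% of genes in this direction. The mean of Cdh1 was at least 7.50-fold that of MFL NK cells, with 1 of the LM CD49a- NK libraries at 0 (adjusted p = 0.343). Cdh1 had passed the filter on low counts through CD49a+ NK cells and ILC1, and in a fit of LM CD49a- and MFL NK cells alone it did not pass it.

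The remaining 4 genes had adjusted p-values between 0.924 and 1 in edgeR. The log2 fold change was 1.59 (SE 1.20) for Plac8, 0.11 (SE 2.33) for Prss16, -1.86 (SE 1.66) for Smtn and -0.17 (SE 0.30) for 1700025G04Rik. LM CD49a- NK library 3 decided Smtn and Prss16, since it alone of the 3 held counts of them. Without it, Smtn was at 0 in LM CD49a- NK cells and passed the test (adjusted p = 0.0867, with 0.765% of all genes called), and Prss16 had no count in LM CD49a- NK cells either. The intervals implied by these errors are wide, and the data do not show that the levels were alike.

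**Figure D2:**
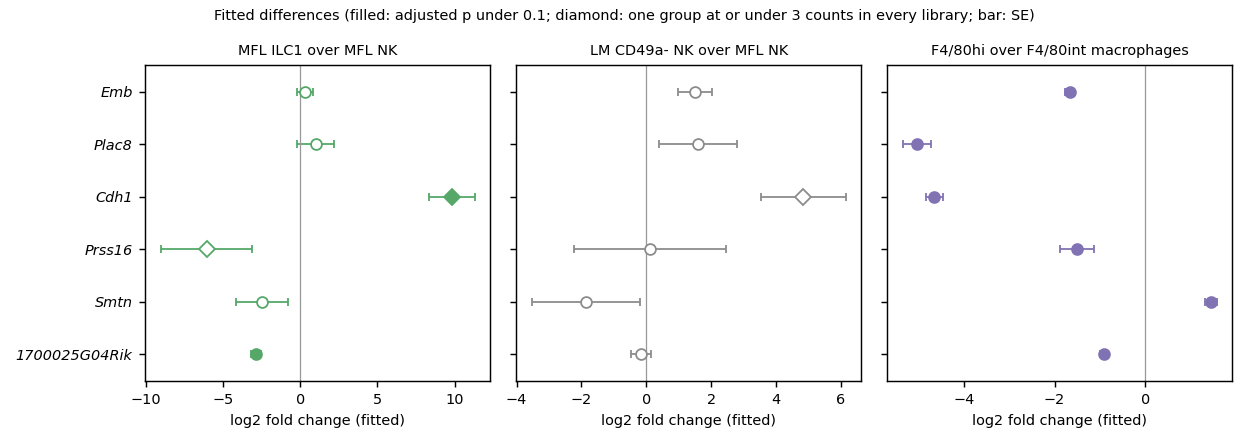
Fitted log2 fold change with its SE (x axis) of each gene (y axis) in the 3 comparisons without CD49a+ NK cells. Cdh1 and 1700025G04Rik pass the test between MFL ILC1 and MFL NK cells, none passes between LM CD49a- and MFL NK cells, and all 6 pass between F4/80hi and F4/80int macrophages. Where a population has 3 counts or fewer in every library (Cdh1 in MFL NK, Prss16 in MFL ILC1), the fitted value plotted depends on the prior count and is not an estimate of the fold.

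The macrophages of MC38 metastases gave a reading that the choice of the genes by lymphocyte levels did not use. The subsets were sorted on F4/80 (encoded by Adgre1), and the summed monocyte markers overlapped, at 13659 to 18315 CPM in F4/80int and 11941 to 16704 CPM in F4/80hi libraries. By edgeR's quasi-likelihood test, all 6 genes differed between the subsets, 5 lower and 1 higher in F4/80hi MAMs. The background was high, since 27.1% of 13759 genes were called lower, 27.8% higher and 54.9% in either direction, so that passing the test was common in this contrast.

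Plac8 measured 445, 418 and 531 CPM in F4/80int libraries 1, 2 and 3 and 15.8, 18.9 and 7.85 CPM in F4/80hi libraries. It was 32.8-fold lower in F4/80hi MAMs (log2 fold change -5.04, SE 0.31, adjusted p = 8.79e-06), and the libraries of the subsets lay far apart. Cdh1 measured 247, 264 and 189 CPM in F4/80int and 8.06, 11.5 and 8.14 CPM in F4/80hi libraries, 25.3-fold lower (-4.66, SE 0.19, adjusted p = 1.94e-06). Emb measured 292, 261 and 299.7 CPM in F4/80int and 99.1, 87.9 and 81.0 CPM in F4/80hi libraries, 3.18-fold lower (-1.67, SE 0.10, adjusted p = 9.43e-06). With TMM scaling, these are the 3 genes whose CD49a+ NK libraries all lay above the other NK libraries, by values behind their choice. With 27.1% of all genes called lower in F4/80hi MAMs, nothing is read from this, and a link was not tested.

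Prss16 was scarce in both subsets, with 1.71, 0.990 and 1.38 CPM in F4/80int and 0.630, 0.354 and 0.454 CPM in F4/80hi libraries, 2.84-fold lower (log2 fold change -1.51, SE 0.37, adjusted p = 0.0108). 1700025G04Rik measured 53.7, 55.9 and 49.3 CPM in F4/80int and 25.6, 29.5 and 29.5 CPM in F4/80hi libraries, 1.88-fold lower (-0.91, SE 0.09, adjusted p = 0.000122). Smtn went the other way, with 8.01, 8.06 and 6.79 CPM in F4/80int and 21.7, 22.6 and 18.13 CPM in F4/80hi libraries, 2.73-fold higher (1.45, SE 0.13, adjusted p = 6.92e-05). No gene of the 6 had overlapping libraries, as held for 28.6% of all genes in the lower and 29.8% in the higher direction.

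**Figure D3:**
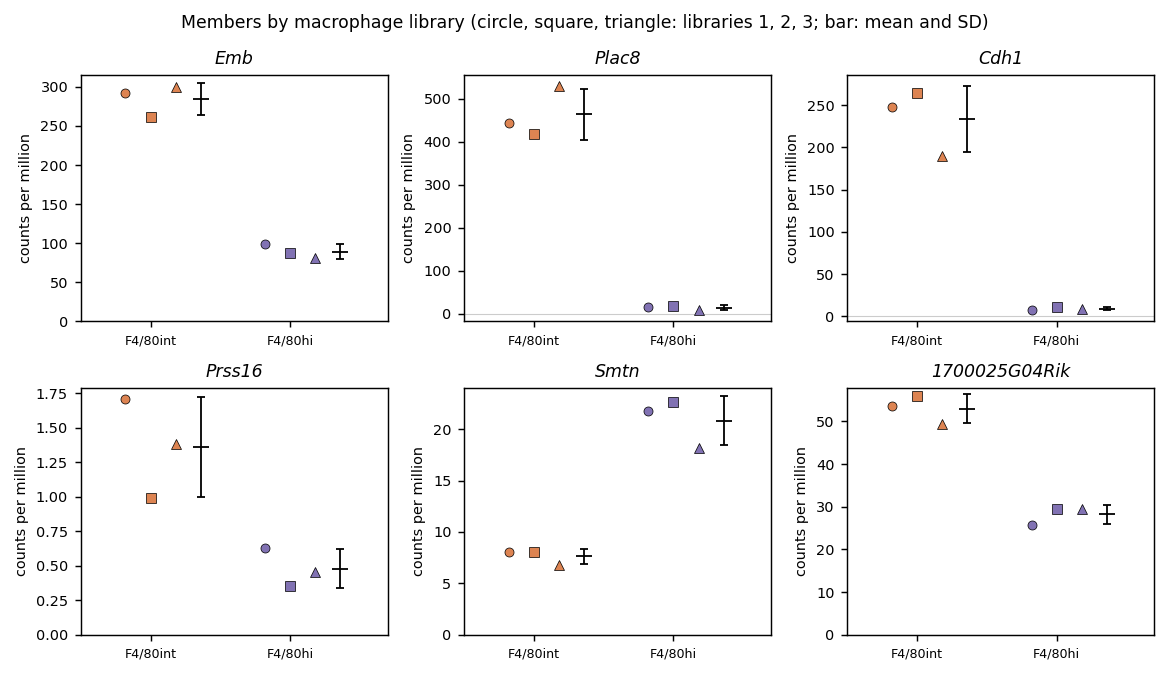
Level of each gene (y axis, CPM, 1 scale per panel) in 3 F4/80int and 3 F4/80hi macrophage libraries (x axis), with the mean and SD beside the points. Plac8 and Cdh1 lie between 189 and 531 in F4/80int and below 20 in F4/80hi libraries, and Smtn alone is higher in F4/80hi libraries.

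The receptors and partners of E-cadherin divided in these macrophages. In the list of E-cadherin adhesion and its receptors, 4 of the 10 other tested genes were higher and 6 lower in F4/80hi MAMs (median log2 fold change -0.66, beside 0.01 over all genes). The CD103 chains fell with Cdh1, Itgae by 4.45 (SE 0.44, adjusted p = 9.54e-05) and Itgb7 by 4.79 (SE 0.20, adjusted p = 1.94e-06) on the log2 scale. Afadin (Afdn, -1.67), plakoglobin (Jup, -1.31) and Vcl (-0.81) were also lower, whereas Ctnnd1 (1.29) and Ctnnb1 (0.53) were higher in F4/80hi MAMs.

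Markers of conventional dendritic cells and of epithelium moved with this contrast. The sum of the 8 dendritic cell markers, the list added after the values were seen, was 588 to 944 CPM in F4/80int and 22.2 to 31.3 CPM in F4/80hi libraries, with Ccr7 the highest in F4/80int libraries. Itgae, Itgb7 and Cdh1 are also known from dendritic cells. NK cell markers summed to 21.5 to 51.4 CPM in F4/80int and 4.25 to 10.7 CPM in F4/80hi libraries, and the epithelial markers in the table (Epcam and Krt7) to 9.95 to 18.6 CPM and 0.422 to 0.630 CPM. The part of these cells in the levels of Cdh1 and Plac8 in F4/80int MAMs was not tested.

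The other lists had members in both directions. Of the 10 other genes of embigin and monocarboxylate transport, 3 were higher and 4 lower in F4/80hi MAMs (median 0.06), with Slc16a3 2.37-fold lower (log2 fold change -1.24, SE 0.21, adjusted p = 0.00186) and Slc16a6 1.90-fold higher (0.93, SE 0.08, adjusted p = 3.88e-05), while Bsg did not pass (0.04, SE 0.15, adjusted p = 0.843). Of the 12 other genes of S28 peptidases and antigen-processing proteases, 5 were higher, among them legumain (Lgmn, 1.79) and cathepsin D (Ctsd, 1.65), and 3 lower, among them Ifi30 (-1.09) and Prcp (-0.88). Of the 7 other genes of the smoothelin family and contractile cytoskeleton, 3 were higher and 0 lower, namely Cald1 (1.93), Tpm2 (1.73) and Tpm1 (1.20), which encode proteins that bind actin filaments. Smooth muscle and stellate cell markers summed to 27.1 to 106 CPM in F4/80int and 141 to 206 CPM in F4/80hi libraries, and their part in the level of Smtn was not tested.

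The rest of the CD49a+ NK signature was read in MAMs too, a list the study chose on the lymphocyte libraries. Of its 14 other genes in the table, 9 were higher in F4/80hi MAMs and 2 lower (median log2 fold change 0.99), the 9 being Tpx2, Cdk6, Kif20a, Cenpf, Atad5, Depdc1b, Spag5, Nsl1 and Sfxn5. The summed cell cycle level was 6661 to 8056 CPM in F4/80hi and 3751 to 4203 CPM in F4/80int libraries. The 2 lower genes were the ectonucleotidase Nt5e (-1.20) and 5830408C22Rik (-0.75). The macrophage subset with the higher cell cycle level thus had 5 of the 6 genes lower and Smtn higher. Over all genes, 27.1% were called lower and 27.8% higher in it. A link of the genes to the cell cycle was not tested.

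The levels of Plac8, Cdh1 and Emb were also set against the summed macrophage markers of the same library. In F4/80int libraries, Plac8 was 0.0421 to 0.0471 of that sum, Cdh1 0.0160 to 0.0266 and Emb 0.0253 to 0.0308. In CD49a+ NK libraries 2 and 3, Plac8 was 0.770 and 8.14 of the sum, Cdh1 0.418 and 7.49 and Emb 6.41 and 103.5, over sums of 44.0 and 6.88 CPM, and library 1 had no macrophage marker counts. Ratios above those of F4/80int libraries were also measured in other lymphocytes. Plac8 was 0.177 and 1.30 of the sum in LM CD49a- NK libraries 2 and 3, 0, 0.531 and 0.286 in MFL NK and 0.310, 0.0459 and 0.0345 in MFL ILC1 libraries, and the ratio of Emb was at least 0.396 in every lymphocyte library that had one. The denominators are small in lymphocytes, the RNA kits of the experiments differ, and the part of macrophages in these levels was not tested.

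**Figure D4:**
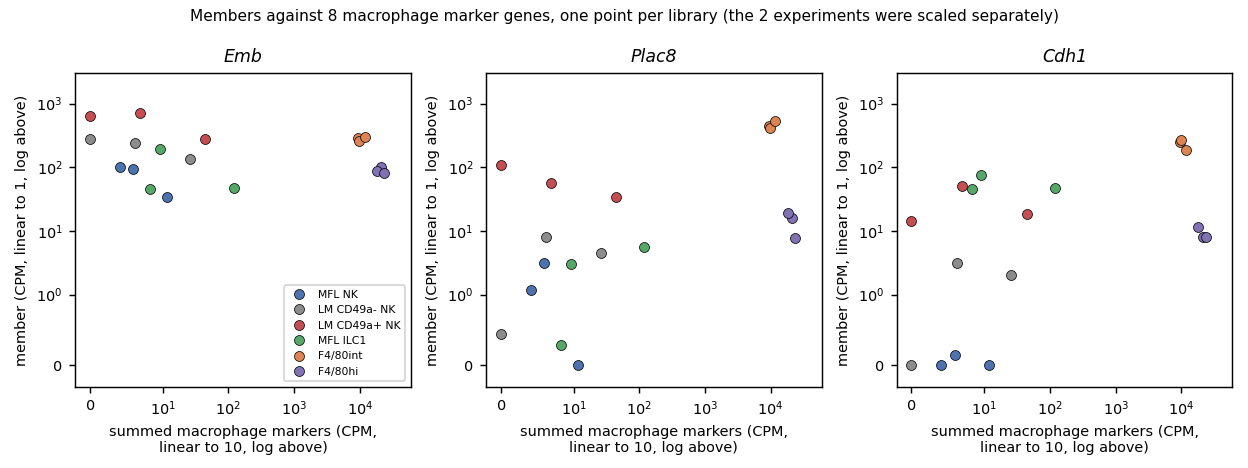
Level of Emb, Plac8 and Cdh1 (y axis, CPM) against the summed level of 8 macrophage markers (x axis, CPM), 1 point per library, on axes that are linear near 0 and logarithmic above. CD49a+ NK libraries have up to 44.0 CPM of macrophage markers and F4/80int libraries at least 9452, with the 2 experiments scaled separately.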

How the data were processed

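Type 1 lymphocytes (12 libraries) and MAMs (6 libraries) were sequenced by the study, and the 3 lymphocyte replicates are independent sorts of pooled samples of several mice according to the study, so that p-values measure the spread between pools. Nothing in the sources used here says whether MAM libraries came from separate animals, and their spread may be technical. Lymphocyte RNA was read with a total RNA kit and MAM RNA with a poly(A) kit, so levels were not tested across the experiments. Lymphocyte reads were trimmed by Trim Galore, then quantified by Salmon (v1.5.0) on GRCm39 transcripts and summed per gene. The authors deposited estimated counts, already whole and not normalized, for 54309 genes. For the MAMs, the deposited values are raw counts of 13759 genes from which low genes had been removed. The processing notes list Trim Galore and Salmon (v1.10.0) for them without a role, and how the counts were made is not given in the sources used here. Low genes that the authors removed cannot be tested in MAMs.

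Gene IDs were named from GENCODE vM39 (53700 of 54309 and 13726 of 13759 IDs). Genes were kept by edgeR's filterByExpr (13594 and 13759 genes), and libraries scaled by TMM. The tools were edgeR (v4.0.16), DESeq2 (v1.42.0) and limma (v3.58.1) in R (v4.3.3), with Python and matplotlib for plots. The main test was edgeR's quasi-likelihood test in 1 fit per experiment, called at a Benjamini-Hochberg adjusted p under 0.1, the threshold of the study. The SE of a log2 fold change is its size over the square root of F. A fold against a group with 3 counts or fewer in every library is a lower bound at 3 counts per library. An exact permutation test of 3 libraries against 3, two-sided, cannot go below 0.1 and was not used. The code was tested on simulated data.

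The 6 genes and the gene lists were chosen with earlier results of these data known. Named genes are the 6, called genes and closest relatives or binding partners from the lists, and the 3 genes nearest each member by root mean square difference of centred log2 CPM (prior count 2). Alternatives were RLE and upper-quartile scaling, no filter, DESeq2, limma-voom with quality weights, a fit of 2 groups alone, a replicate block and leaving out each library. A marker result that involves a withheld item is not reported here.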

Additional observations from a re-analysis of the deposited data

How the results depend on the processing

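The 6 calls between F4/80hi and F4/80int MAMs and the calls of Cdh1 and 1700025G04Rik between MFL ILC1 and MFL NK cells held under each alternative run. Over these, Cdh1 had an adjusted p from 3.54e-14 to 0.00559, and 1700025G04Rik a log2 fold change between -2.98 and -2.72 (adjusted p from 9.58e-18 to 0.000451). In MAMs, leaving out 1 library in turn gave 3266 to 3598 genes higher, 3284 to 3636 lower and all 6 members called.

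Between MFL ILC1 and MFL NK cells, the main counts of 188 higher and 228 lower became 291 higher without the filter, 377 and 388 with DESeq2, 1291 and 1354 with limma-voom and 624 and 604 in the fit of the 2 groups alone, and 110 to 129 and 147 to 172 with 1 library left out, with 2 members called each time. With limma-voom, 5 members were called, and Emb (-0.85) and Plac8 (-0.076) changed direction. Emb was also reversed without MFL NK replicate 1 (-0.04) and without MFL ILC1 replicate 1 (-0.74), in a range up to 0.66 with 1 library left out. The higher count moved by over 1.5 times without MFL NK replicate 1 (110), 2 (120) or 3 (112) or MFL ILC1 replicate 2 (122), and the lower count without MFL ILC1 replicate 3 (147).

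For LM CD49a- against MFL NK cells, the main counts of 9 higher and 1 lower became 133 and 25 without the filter (2 members called), 140 and 162 with DESeq2 (1 member), 102 and 2 with limma-voom and 2 higher in the fit of the 2 groups alone. With 1 library left out they were 0 to 82 higher and 1 to 90 lower, with 0 to 1 members called (Smtn, without LM CD49a- NK replicate 3). The higher count was 0 without MFL NK replicate 1 or 3, 2 without replicate 2, 3 without LM CD49a- NK replicate 1, 82 and 20 without replicates 2 and 3, and the lower count 4 and 90 without the latter. Prss16 was reversed with limma-voom (-1.37), without MFL NK replicate 1 (-0.47) and without LM CD49a- NK replicate 3 (-6.07, a fitted value against a group at 0 and no estimate of the fold), with 0.90 the highest value with 1 library left out, and 1700025G04Rik without LM CD49a- NK replicate 1 (0.10), with -0.36 the lowest. The cause was not tested.

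Between libraries of the same replicate number, deviations from the group mean correlated at -0.045 to 0.098 (18 lymphocyte pairs) and -0.015 to 0.172 (3 MAM pairs). Such values over all genes cannot decide whether these libraries share a sort or mice. The main fit took all libraries as unpaired. With the replicate block, 0 members were called for LM CD49a- against MFL NK cells, 2 for the MFL populations and 6 for the MAM subsets. The block gave 13 higher and 2 lower genes between LM CD49a- and MFL NK cells, and Prss16 was reversed (-0.70).

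With RLE factors, 1 member (Plac8) in place of 2 lay above all 3 other populations in every CD49a+ NK library. With CPM on total counts, 3 did, 1700025G04Rik among them at 122.2 against 122.1 CPM. Of the descriptions, 7 moved by more than the spread between replicates. Against MFL ILC1, the log2 fold change was -1.77 for Cdh1 without CD49a+ NK replicate 3, and 3.55 for Emb and 4.75 for Smtn without MFL ILC1 replicate 1. Without LM CD49a- NK replicate 3, Prss16 and Smtn were at 0 in LM CD49a- NK cells (fitted values 9.76 and 10.49), and against MFL NK cells, with 3 counts or fewer in every library, the fitted value of Cdh1 was 11.32 without MFL NK replicate 2 and 8.07 without CD49a+ NK replicate 3. Counts of 3 or fewer per library limit Cdh1 in MFL NK cells and Prss16 in MFL ILC1, for which no fold but a bound can be given.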
